A study of Homo sapiens with 4 samples.

Results

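To describe where FOXC1 was found at the genes of the core binding factor, peaks of FOXC1 chromatin immunoprecipitation with sequencing (ChIP-seq) were collected at RUNX1, RUNX2, RUNX3 and CBFB. J82, the human bladder cancer line used, was cultured without a stated treatment. The study asked how the forkhead transcription factor FOXC1 acts on enhancers in drug-resistant cells. It describes this ChIP-seq as done in J82 cells and does not state that drug-resistant cells were sorted for it. Antibody D8A6 pulled down FOXC1 in 2 replicate ChIP libraries, and 2 input libraries brought the number to 4. One line and one condition were profiled, so no treated or knockout group stands beside these values. A peak was assigned to a gene when its summit, the position of highest pileup, lay in the gene body or within 50 kb of it on the GRCh37 assembly. By this rule the 4 loci held 26 of 22405 peaks in replicate 1 and 57 of 41789 in replicate 2. Of the 13238 regions shared by both replicates, 22 lay at these loci.

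RUNX proteins bind DNA through the Runt domain, which recognises TGTGGT, and CBFB is the partner that binds no DNA itself but strengthens their hold on it. RUNX1 is a master regulator of blood formation, RUNX2 of bone formation, and RUNX3 acts in T cells, sensory neurons and epithelia. Each of the 3 RUNX genes is transcribed from a distal and a proximal promoter. Forkhead proteins such as FOXC1 recognise sequences of the form RTAAAYA, where R is A or G and Y is C or T.

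By count, FOXC1 peaks were most numerous at RUNX1 and RUNX2, whose windows are also the longest. RUNX1 (ENSG00000159216, chr21:36160098-37376965, minus strand) held 15 peaks in replicate 1, 34 in replicate 2 and 14 shared regions. RUNX2 (ENSG00000124813, chr6:45295894-45632086, plus strand) held 9, 17 and 7. CBFB (ENSG00000067955, chr16:67062887-67134961, plus strand) held 2, 3 and 1. RUNX3 (ENSG00000020633, chr1:25226002-25291612, minus strand) held no peak in replicate 1, 3 in replicate 2 and no shared region. The single strongest site lay in an intron of RUNX1, with a fold enrichment over local background of 36.8 in replicate 1 and 59.0 in replicate 2.

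The sequence under the best ranked shared region of RUNX1, RUNX2 and CBFB is shown because these are the sites on which the description turns. A region's rank was set by the replicate in which its −log10 p stood lower in the order. Each window is 101 bases centred midway between the replicate summits, read 5′ to 3′ on the plus strand of GRCh37. Capitals mark matches, on either strand, to the forkhead consensus RTAAAYA, the RUNX consensus TGTGGT, the AP-1 consensus TGASTCA (S is C or G), the TEAD consensus GGAATG, or a longer element made of CCAA and a forkhead-like core after it.
RUNX1, chr21:36218117-36218217: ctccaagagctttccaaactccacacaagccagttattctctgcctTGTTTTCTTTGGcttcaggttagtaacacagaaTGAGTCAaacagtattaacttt
RUNX2, chr6:45413725-45413825: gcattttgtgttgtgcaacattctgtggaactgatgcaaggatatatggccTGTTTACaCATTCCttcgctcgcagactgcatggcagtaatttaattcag
CBFB, chr16:67102436-67102536: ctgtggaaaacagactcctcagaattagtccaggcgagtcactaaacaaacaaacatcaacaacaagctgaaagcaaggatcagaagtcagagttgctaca
The RUNX1 window holds the longer element, on the minus strand, at -4 and an AP-1 match at +29, but no RTAAAYA. The RUNX2 window holds a forkhead match, read on the minus strand, at +1, followed by a TEAD match at +9. None of the sequences searched lies in the CBFB window. Offsets in bp run from the summit to the leftmost base of the match, and a match describes the letters in the window only.

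A further 3 windows, chosen after their values were seen, show the distal RUNX1 promoter and the next ranked RUNX1 regions.
RUNX1 distal promoter, chr21:36421812-36421912: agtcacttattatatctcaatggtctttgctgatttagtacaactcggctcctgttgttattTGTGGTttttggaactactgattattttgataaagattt
RUNX1 far upstream, chr21:37152138-37152238: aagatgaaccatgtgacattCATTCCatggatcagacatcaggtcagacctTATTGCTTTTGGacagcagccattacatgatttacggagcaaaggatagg
RUNX1 upstream, chr21:36570437-36570537: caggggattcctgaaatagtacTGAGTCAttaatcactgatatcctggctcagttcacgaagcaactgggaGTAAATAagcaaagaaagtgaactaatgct
The promoter window carries TGTGGT, the letters that RUNX proteins themselves recognise, at +12 and no forkhead match. The far upstream window holds the longer element at +1 and a TEAD match at -30. In the upstream window, an AP-1 match at -28 and a forkhead match at +21 lie on opposite sides of the summit.

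The RUNX1 gene record spans 1216.9 kb because 4 annotated transcripts, RUNX1-217, RUNX1-211, RUNX1-209 and RUNX1-214, start far upstream of the canonical one, and of these RUNX1-214 is labelled protein-coding. The canonical transcript, RUNX1-218, covers 261.5 kb. The 14 shared regions were split by its start into 5 inside the canonical transcript and 9 upstream of it within the longer record, and none lay in the 50 kb flanks. Per Mb this came to 19.1 shared regions inside the canonical transcript and 9.42 upstream of it. Neighbouring shared summits were 0.895 to 313 kb apart, with a median of 48.1 kb. All 14 are annotated as intronic, which for the upstream 9 rests on the longer record.

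**Figure D1:**
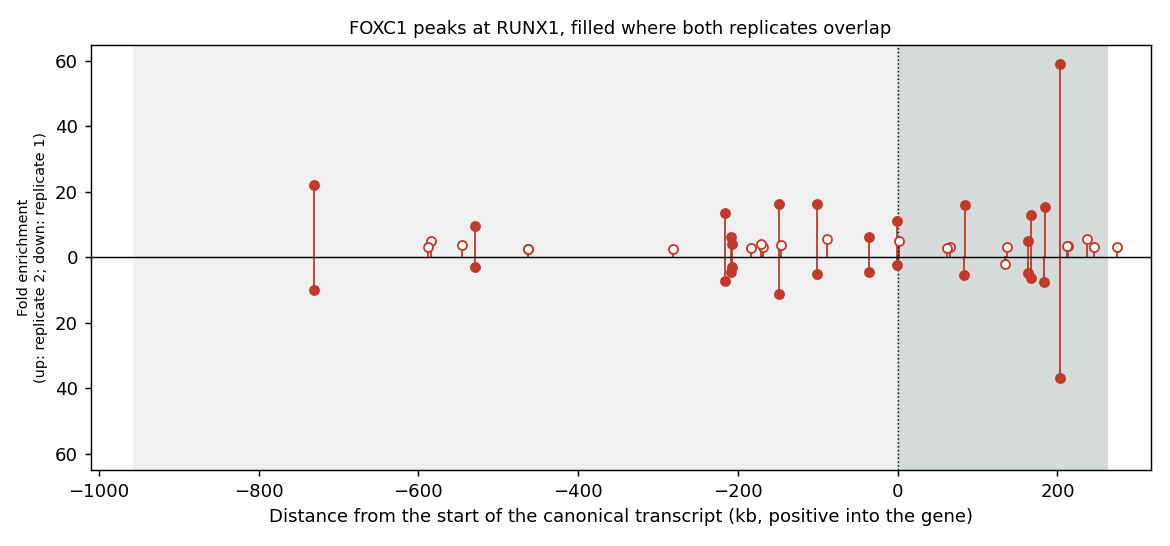
FOXC1 peaks at RUNX1, with fold enrichment upwards for replicate 2 and downwards for replicate 1 against distance from the canonical start in kb (positive into the gene). Filled points are peaks that overlapped between the replicates, open points are peaks of 1 replicate, dark shading is the canonical transcript and light shading the rest of the gene record. The tallest pair, 36.8 and 59.0, stands 203 kb inside the gene, and shared peaks also extend 731 kb upstream of the start.

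The best ranked RUNX1 region had its summit at chr21:36218167, in an intron of the canonical transcript and 203 kb downstream of its start. It also lies inside ENSG00000286153, another annotated gene. Reads over the summit numbered 189 (95% exact Poisson interval 163 to 218) in replicate 1 and 309 (276 to 345) in replicate 2, over a local background of 4.16 and 4.15 reads. Its −log10 q was 231 and 401, and it ranked 95 among the 13238 shared regions. The second region, at chr21:37152188, lay 731 kb upstream of the canonical start, with fold enrichments of 10.0 and 22.1 from 54 and 115 reads. The third, at chr21:36570487, lay 149 kb upstream of that start with fold enrichments of 11.2 and 16.4 from 57 and 85 reads. These 3 regions ranked 95, 1148 and 1736, so a wide gap separated the first from the rest. The irreproducible discovery rate (IDR) was 5.68e-12, 2.06e-06 and 1.06e-05 for them. The IDR of a region estimates the share of irreproducible pairs among all pairs of peaks scored at least as reproducible.

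The shared region nearest to a RUNX1 start site was at the distal promoter. Its summit, chr21:36421862, lay 221 bp upstream of the start of RUNX1-201 and 263 bp upstream of the canonical start. By the ratio of fold enrichments the replicates differed there more than at any other shared region of the 4 loci. Replicate 1 had 19 reads (11.4 to 29.7) over a local background of 7.19, a fold enrichment of 2.44 and a −log10 q of 1.29. Replicate 2 had 57 reads (43.2 to 73.9) over a background of 4.15, a fold enrichment of 11.1 and a −log10 q of 36.1. The ratio of the fold enrichments was 4.52, at percentile 99.7 of all shared regions, and the IDR was 0.421. Replicate 1 thus had fewer reads over a higher background. A separate peak of 26 reads and a fold enrichment of 5.15, chosen after its values were seen, was listed in replicate 2 alone 1368 bp inside the canonical start.

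At the proximal RUNX1 promoter side, the region at chr21:36258277, chosen after its values were seen, lay 1203 bp inside the start of RUNX1-205. Its fold enrichments were 4.65 and 5.15, from 23 and 26 reads, the closest pair of values among the 14 RUNX1 regions. Together with the distal promoter it made up the 2 of 22 shared regions (9.09%) within 2 kb of any annotated start site, beside 20.05% of all shared regions. Over RUNX1 as a whole, 9 of 14 shared regions had an IDR of 0.05 or less. The remaining 5 included the distal promoter and the region 2124 bp inside RUNX1-211, a transcript without a defined coding sequence, with fold enrichments of 2.90 and 9.60, also named after its values were seen.

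The other 6 RUNX1 regions at that IDR limit, named here after their values were seen, fell between the third region and the weak ones. Inside the canonical transcript, chr21:36237790 had fold enrichments of 7.36 and 15.4 and chr21:36254228 of 6.20 and 13.0. Like the best ranked region, both also lie inside ENSG00000286153. Also inside the canonical transcript, chr21:36337936 had 5.23 and 16.0. Upstream of the canonical start, the region at chr21:36637959 had 7.16 and 13.5, and the one at chr21:36522346 had 5.06 and 16.4. Closest to the start among these upstream sites, 35.9 kb from it, chr21:36457485 had 4.45 and 6.21.

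At RUNX2, shared regions were frequent but had lower fold enrichments than at RUNX1, a difference described here without a test. Only 1 of the 7 had an IDR of 0.05 or less. That region, at chr6:45413775, lay in an intron 118 kb inside the distal start and 23461 bp inside RUNX2-210, which starts at the proximal promoter. The summits of the replicates fell on the same base. Reads numbered 45 (32.8 to 60.2) and 89 (71.5 to 110), with fold enrichments of 5.62 and 16.2, and the IDR was 7.02e-05. The next ranked regions, at chr6:45582856 and chr6:45618502, had fold enrichments of 3.62 and 8.13, and of 4.40 and 6.11. Their IDR values were 0.0737 and 0.128.

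The shared region nearest to one of RUNX2's own start sites, at chr6:45406612, was still 16298 bp from it. It had 15 reads in replicate 1 and 24 in replicate 2, and its fold enrichments of 2.80 and 2.52 made it the only 1 of the 22 shared regions that was lower in replicate 2. Its local background was 4.72 reads in replicate 1 and 8.85 in replicate 2. Of the 7 RUNX2 regions, 2 lay between the first start and the end of the canonical transcript RUNX2-212, 4 lay beyond that end but inside the gene record, and 1 lay in the downstream flank. Chosen after their values were seen, the weakest replicate 1 values, 2.30 at chr6:45558208 and 2.39 at chr6:45598837, belonged to regions beyond the canonical end whose replicate 2 values were 6.49 and 6.07. Per Mb, the stretch beyond the canonical end held 35.3 shared regions and the stretch before it 8.97. The 4 regions beyond that end had IDR values of 0.0737 to 0.377. The gene record reaches that far through RUNX2-209 and RUNX2-206.

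With a 100 kb flank, each of the 4 genes gained 1 shared region, which brought RUNX1 to 15, RUNX2 to 8, CBFB to 2 and RUNX3 from none to 1. At RUNX2, just inside the 50 kb limit, the outermost peaks had fold enrichments of 3.22 in replicate 1, at 20.8 kb from the gene, and 2.88 in replicate 2, at 35.5 kb. Just outside the limit, at 50.8 kb, lay a pair of peaks with fold enrichments of 5.70 and 13.1, from 30 and 68 reads. That pair exceeded all but 1 of the RUNX2 regions by the replicate 2 value.

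The single shared region of CBFB lay at chr16:67102486, in an intron 39.4 kb inside the canonical start. Reads numbered 25 (16.2 to 36.9) in replicate 1 and 59 (44.9 to 76.1) in replicate 2. The fold enrichments were 4.66 and 6.79, and the IDR was 0.00844. The nearest other peaks outside the CBFB window were 86.3 kb from the gene in replicate 1 and 89.7 kb in replicate 2. No CBFB peak of either replicate lay within 2 kb of the canonical start.

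RUNX3 had no shared region. Its 3 replicate 2 peaks, all given because they are so few, had summits at chr1:25237435, chr1:25237860 and chr1:25266020, with fold enrichments of 2.87, 2.68 and 3.03 from 14, 13 and 19 reads. All were annotated as intronic, and the last lay 9253 bp upstream of the canonical start at the proximal promoter. None reached a −log10 q of 5, and they sat at percentiles 25.1, 16.6 and 29.9 of replicate 2 fold enrichments. The replicate 1 peak nearest to RUNX3 lay 70.1 kb from the gene, with 11 reads. Whether replicate 1 held reads below its list at these sites was not tested.

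**Figure D2:**
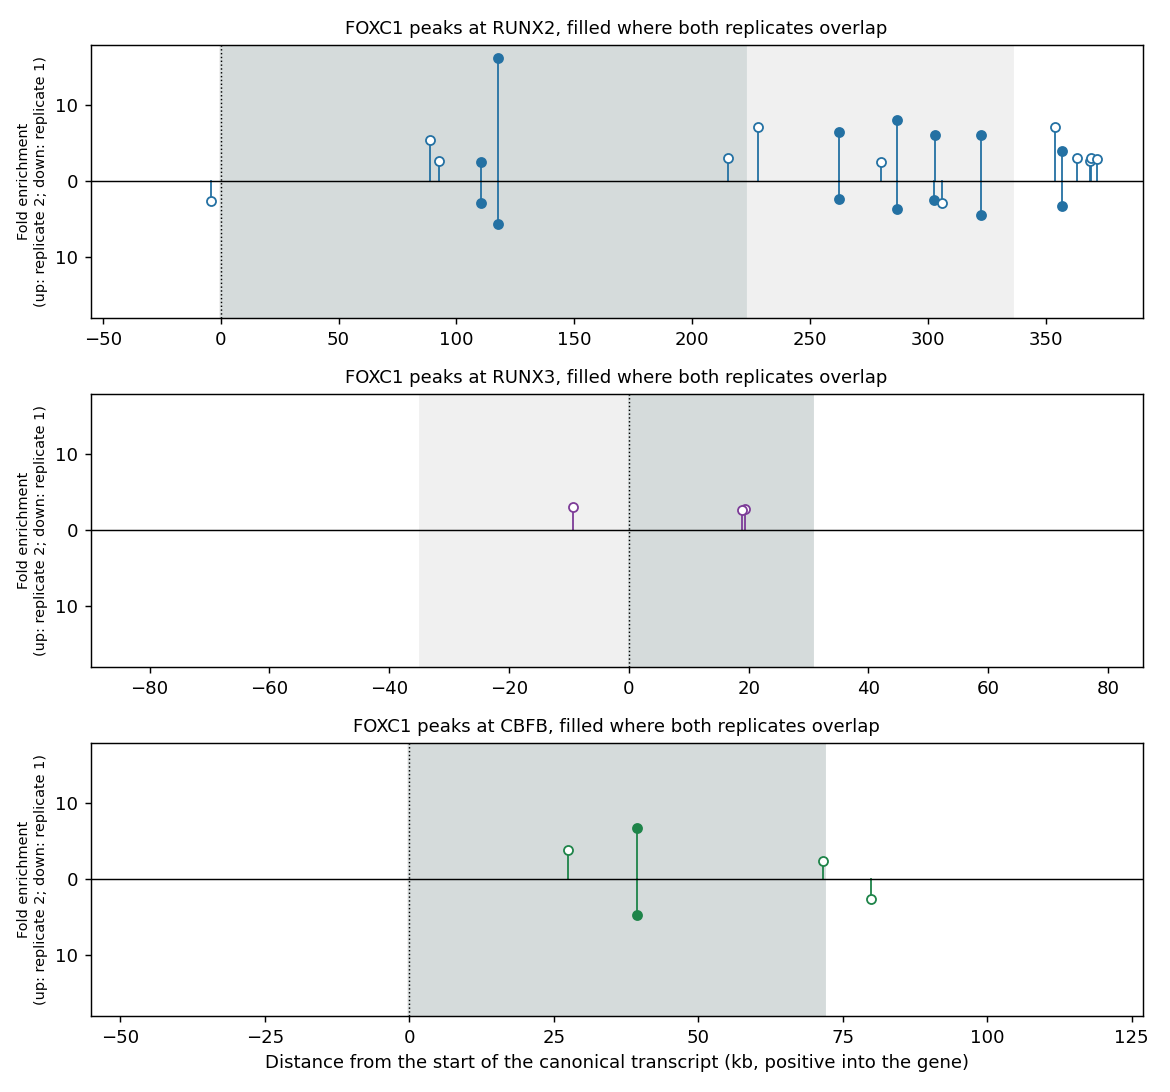
FOXC1 peaks at RUNX2, RUNX3 and CBFB, drawn as for RUNX1 with fold enrichment upwards for replicate 2 and downwards for replicate 1 against distance from each canonical start in kb. Filled points overlapped between the replicates and shading marks the canonical transcript (dark) and the rest of the gene record (light). RUNX2 carries 7 shared regions, most of them beyond the canonical end, CBFB carries 1 and RUNX3 none.

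Overlap between the replicates was then set beside that of the whole lists. At the 4 loci, 22 of 26 replicate 1 peaks (84.6%, exact Clopper-Pearson interval 65.1 to 95.6) overlapped a replicate 2 peak, beside 59.6% of all replicate 1 peaks. Once peaks below a −log10 q of 5 were left out, the share was 100% at the loci and 97.7% over all peaks, so little of that gap was left. In the other direction, 22 of 57 replicate 2 peaks (38.6%, 26.0 to 52.4) overlapped a replicate 1 peak, beside 31.7% overall. The second share was thus within counting error of its background. Of the 22 shared regions, 11 (50%) had an IDR of 0.05 or less, beside 45.2% of all shared regions, which is close to the background. Intervals here and for reads cover counting error only, and peaks of a locus share their libraries.

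Peaks listed in 1 replicate only numbered 4 in replicate 1 and 35 in replicate 2. The 4 replicate 1 peaks had fold enrichments of 2.06 to 2.79 and 13 to 15 reads, and none reached a −log10 q of 5. The 35 replicate 2 peaks had a median fold enrichment of 3.09 and 12 to 37 reads, and 7 reached that level. The highest −log10 p among these peaks at RUNX2 belonged to chr6:45649820 in the downstream flank, with 37 reads and a fold enrichment of 7.21. At RUNX1 it belonged to chr21:36184978, with 29 reads and a fold enrichment of 5.73, and at CBFB to chr16:67090503, with 21 reads and 3.85. All 3 were replicate 2 peaks, and at RUNX3 it was chr1:25266020, described above. Another replicate 1 peak, chr16:67142969 in the CBFB flank, lay 875 bp upstream of a start of PHAF1 and had a fold enrichment of 2.52. It was chosen after its values were seen.

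Fold enrichment was higher in replicate 2 at 21 of the 22 shared regions (95.5%), beside 91.9% of all shared regions. Replicate 2 exceeded replicate 1 by a median ratio of 1.99 at the 4 loci (0.901 to 4.52) and of 1.69 over all shared regions. Higher replicate 2 values were thus a feature of most shared regions in these lists. The median fold enrichment at the 4 loci was 4.55 in replicate 1 and 8.87 in replicate 2, beside 3.79 and 6.71 over all shared regions. RUNX1 regions had medians of 5.15 and 13.2, and RUNX2 regions 3.22 and 6.11. By the mean of both replicates, 12 of the 14 RUNX1 regions but 3 of the 7 RUNX2 regions lay above the median of all shared regions.

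**Figure D3:**
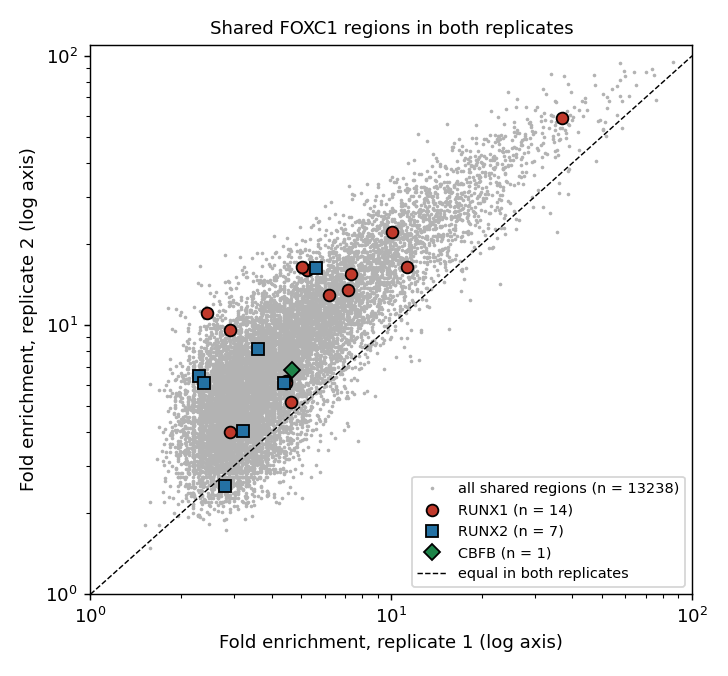
Fold enrichment of each shared region in replicate 1 (horizontal) and replicate 2 (vertical), both on log axes, with all 13238 shared regions in grey and those of RUNX1, RUNX2 and CBFB in colour. The dashed line marks equal values, and 21 of the 22 coloured points lie above it, as does most of the grey cloud.

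Fold enrichment depends on the background as well as on the reads, so both were recovered. The median number of reads over the summit at the 22 regions was 24.5 in replicate 1 and 54.5 in replicate 2, beside 24 and 44 over all shared regions. Pooled over the loci, replicate 1 reads were thus at the level of all shared regions. By gene, the medians were 28.5 and 68.5 at RUNX1 and 19 and 31 at RUNX2, and the CBFB region had 25 and 59. The median local background was 4.49 and 4.15 reads, beside 5.37 and 5.53 overall. At RUNX1, 10 of 14 regions in replicate 1 and 12 in replicate 2 had a local background at the genome-wide level, the lowest value that MACS2 allows. Over all shared regions this held for 20.9% and 21.9%. RUNX2 had 0 of 7 regions at that level in replicate 1 and 2 of 7 in replicate 2, and the CBFB region was above it in both. Low background and higher median reads thus both went with the higher fold enrichments at RUNX1, and the part of each was not tested.

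**Figure D4:**
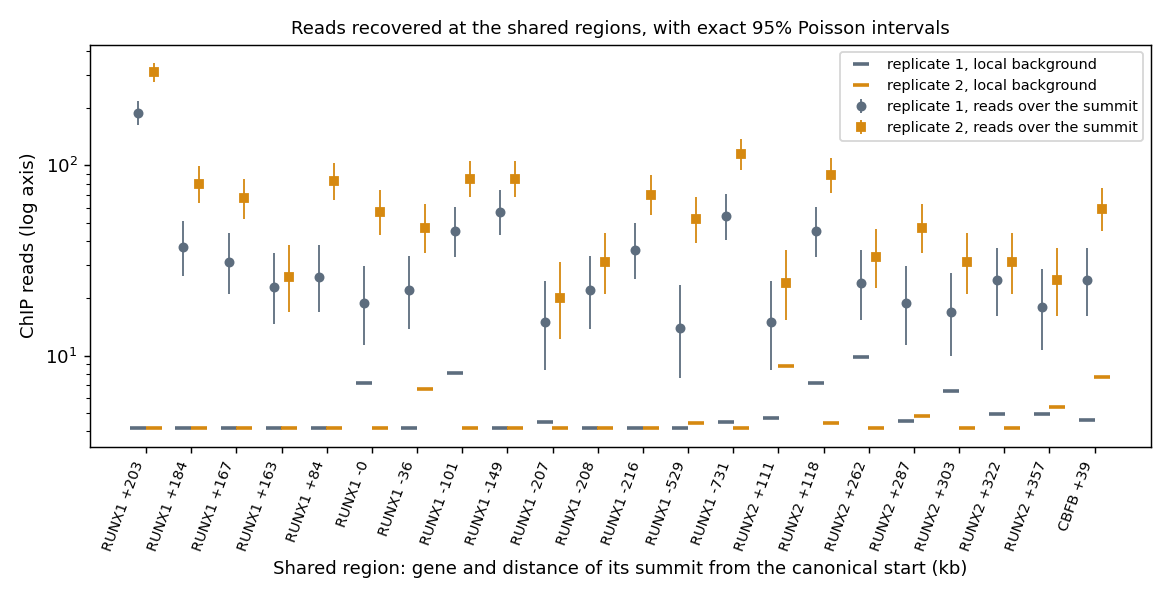
Reads over the summit at each of the 22 shared regions (log axis), with exact 95% Poisson intervals, for replicate 1 (circles) and replicate 2 (squares), and the local background as horizontal marks. Regions are named by gene and by the distance in kb from the canonical start. The RUNX1 region at +203 stands apart with 189 and 309 reads, and the distal RUNX1 promoter, at -0, shows one of the wider gaps between the replicates.

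The density of shared regions was set beside that of all protein-coding genes with the same window. At the 4 loci together, 10.5 shared regions lay in each Mb of window, beside 4.28 per Mb over the chromosomes. Values over the chromosomes divide by their full length, so they are not densities of gene windows. The percentiles compare genes by the same window. RUNX2 had 16.0 per Mb, at percentile 91.0 of 20163 protein-coding genes, and RUNX1 had 10.6, at percentile 85.2. Counting only regions with an IDR of 0.05 or less, RUNX1 had 6.83 per Mb, CBFB 5.81, RUNX2 2.29 and RUNX3 0. The order of RUNX1 and RUNX2 was thus reversed under that limit, which 45.2% of all shared regions met. By single replicate, replicate 1 peaks per Mb numbered 20.6 at RUNX2, 11.6 at CBFB, 11.4 at RUNX1 and 0 at RUNX3, beside 7.24 over the chromosomes. CBFB thus had a density near that of RUNX1 in that list, but from 2 peaks, of which 1 reached a −log10 q of 5. At RUNX1, 11 of 15 replicate 1 peaks reached that level. Replicate 2 peaks per Mb numbered 39.0 at RUNX2, 25.8 at RUNX1, 18.1 at RUNX3 and 17.4 at CBFB, beside 13.5. For shared regions, CBFB had 5.81 per Mb, at percentile 61.1, and RUNX3, with none, shared percentile 26.7 with the other genes at 0. Of the protein-coding genes, 46.6% held a shared region in the window, and 3 of the 4 members did. The RUNX1 window of 1316.9 kb was longer than those of nearly all genes (percentile 99.8), so its count of 14 and its density are given side by side.

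**Figure D5:**
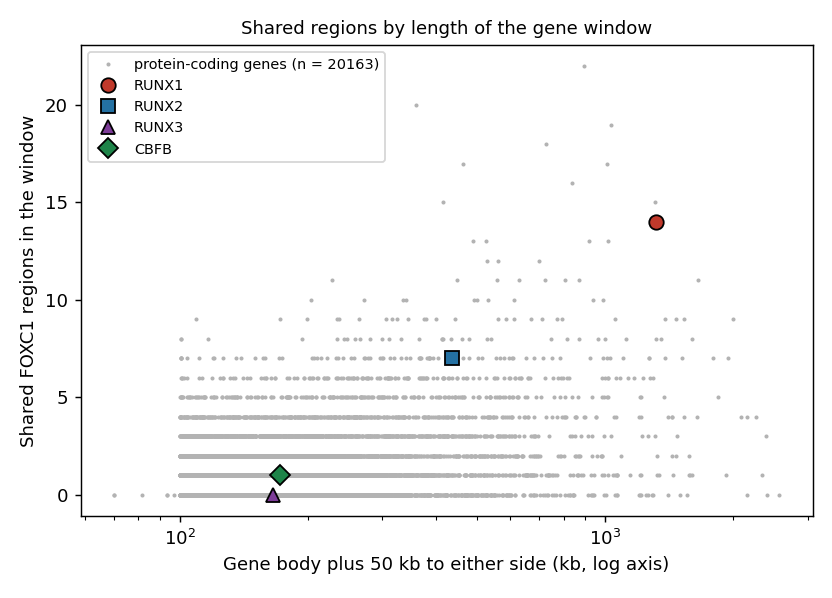
Number of shared FOXC1 regions in the window of each of 20163 protein-coding genes (grey) against the window length in kb (log axis), with the 4 members in colour. RUNX1 holds 14 regions in one of the longest windows, RUNX2 holds 7 in a window of 436.2 kb, and CBFB and RUNX3 hold 1 and 0.

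The letters at the summits were close to those of the whole list. The forkhead consensus RTAAAYA lay within 50 bp of the summit in 11 of 22 shared regions (50%, 28.2 to 71.8), beside 48.7% of all shared regions. In control windows 500 bp downstream it was found in 2 of 22 and in 10.8% overall. The narrower consensus GTAAACA was found in 3 of 22 regions (13.6%, 2.91 to 34.9). The 20.8% of all shared regions lies inside that interval. By gene, RTAAAYA was found in 9 of 14 RUNX1 regions, 2 of 7 RUNX2 regions and not in the CBFB region. The RUNX consensus TGTGGT was found only in the distal RUNX1 promoter, in 1 of 22 regions (4.55%, 0.115 to 22.8), beside 11.6% of all shared regions and 6.72% of all control windows. Within 100 bp of the summit it was found in 3 of 22 (13.6%), beside 20.7% of all shared regions. AP-1 matches were present in 3 of 22 regions and 16.6% of all regions, and TEAD matches in 3 of 22 and 10.1%. The TEAD consensus was as frequent in the 22 control windows, with 3 matches.

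The longer element was found in 4 of 22 regions (18.2%, 5.19 to 40.3), beside 7.28% of all shared regions and 0.506% of their control windows. This element was added to the motifs after the peak lists had been examined, so its shares are not independent support. It was present in the 2 best ranked RUNX1 regions, neither of which holds RTAAAYA, and in the region nearest to a RUNX2 start. At chr21:36457485 it overlaps the forkhead match, so the same bases count for both. The interval of this share reaches below the background of all regions.

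Genes that act with RUNX proteins, or downstream of them, were described with the same window. Of 18 known partners, all were matched in the annotation, 12 held a replicate 1 peak, 18 a replicate 2 peak and 10 (55.6%) a shared region. Over all protein-coding genes, 62.7% held a replicate 1 peak, 80.1% a replicate 2 peak and 46.6% a shared region. SMAD3, a transducer of TGF-beta signals, held 4 shared regions, the strongest, in the flank, with fold enrichments of 25.6 and 52.3. WWTR1, the Hippo pathway coactivator TAZ, held 7, and HIPK2, a kinase of RUNX1, held 2. The TLE corepressors were split, with 3 shared regions each at TLE1 and TLE4 and none at TLE2 and TLE3. No shared region lay at the WWTR1 paralog YAP1 or at SMAD4. Of the acetyltransferases, CREBBP held 2, the best ranked with fold enrichments of 2.504 and 7.93, and its paralog EP300 and KAT6A held none.

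Of 20 known RUNX targets in blood, bone or epithelium, 15 held a replicate 1 peak, 18 a replicate 2 peak and 11 (55%) a shared region, beside the same 62.7%, 80.1% and 46.6%. CSF1R, the macrophage growth factor receptor, held 4 with a strongest pair of 7.23 and 14.3. SOX9, a regulator of cartilage formation, held 3 with a strongest pair of 6.45 and 9.83. Both strongest pairs lay in the flanks outside the gene records, at chr5:149518141-149518744 and chr17:70132623-70133271. The osteoblast genes SP7, BGLAP, ALPL and IBSP held no shared region. SPP1, which encodes osteopontin, held 1 with fold enrichments of 3.49 and 3.82 and an IDR of 0.331. That region lay in the flank outside the gene record. No test was made of either list, and whether their regions lie in other annotated genes was not examined. Median windows were 222.7 kb for the partners, 112.8 kb for the targets and 127.2 kb for all protein-coding genes.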

How the data were processed

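FOXC1 ChIP-seq of J82 cells was sequenced as single-end 75 bp reads. Per the study's methods, the authors mapped reads to hg19 with bwa and called peaks against input with MACS2 (version 2.2.7.1 in the submitters' processing notes), following the ENCODE3 pipeline with IDR. One peak list per ChIP replicate was used, and input files were not analysed here. The deposited score was the −log10 p multiplied by 10 and truncated. The deposited fold enrichment was a ratio of pileup to local background, each with 1 added. The deposited −log10 p and −log10 q came from the same comparison.

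Peaks on chromosomes 1 to 22, X and Y were kept, leaving out 42 of 22447 and 43 of 41832. Whole reads and background at each summit were solved from fold enrichment and −log10 p (residual under 0.001), which succeeded for 100% and 99.8% of peaks. ChIP depth worked out at about 43200000 and 41500000 reads for a genome size of 2.7 Gb. A q-value above 0.05 was carried by 31.3% and 14.3% of peaks. Peaks sharing at least 1 bp were merged into shared regions, with the peak of highest −log10 p representing each replicate. IDR was fitted with code written for this purpose and tested on simulated data. Gene positions came from GENCODE version 44 mapped to GRCh37. Python 3.11.15, numpy 2.4.6, pandas 2.3.3 and scipy 1.17.1 were used.

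Samples were grouped from their titles. With 1 group and no list for the inputs, no test between groups was made. Regions described in full were, for each gene, the shared region nearest to a start site, the 3 best ranked, and the peak with the highest −log10 p listed in 1 replicate only. The genes, lists, motifs and rules were chosen with earlier results of these data known. The longer element was added to the motifs after the peak lists had been examined. Alternatives varied the flank, gene span, overlap rule, filters and motif windows. The study calls the replicates biological, and both came from 1 cell line.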

Additional observations from a re-analysis of the deposited data

How the results depend on the processing

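Of 51 alternatives over 9 values, 38 stayed within the counting interval, the replicate spread or, for counts and densities, 1.5 times the original, and 13 moved further. With the canonical transcript and 50 kb flanks in place of the whole gene record, the 4 loci held 14 replicate 1 peaks, 29 replicate 2 peaks and 11 shared regions, because the upstream stretch of RUNX1 and the far end of RUNX2 drop out. With a −log10 q of at least 5, they held 14, 27 and 14, and shared regions per Mb fell to 6.70, beside 2.17 over the chromosomes. With a fold enrichment of at least 5 they held 9, 26 and 9. Under either filter 100% of replicate 1 peaks overlapped a replicate 2 peak, beside 97.7% and 97.9% of all peaks so filtered, so the gap to the whole list seen without a filter nearly closed. GTAAACA was found in 13.6% of regions, beside 20.8% of all shared regions. The forkhead share was 31.8% (7 of 22) within 25 bp and 54.5% (12 of 22) within 100 bp, beside 34.6% and 59.1% of all shared regions. The share at the loci was thus below the whole list in all 3 of these settings and slightly above it in the original. These differences rest on 22 regions and were not tested, so no change of order is read from them. The RUNX share was 4.55% within 25 bp and 13.6% within 100 bp, beside 5.98% and 20.7%. With 1 replicate used alone, the median fold enrichment was 4.55 to 8.87, the forkhead share 40.9% to 50% and the RUNX share 4.55%. No paired analysis was possible because only the ChIP libraries have peak lists here, so no 2 groups could be compared.

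RUNX3 rests on 3 peaks of 13 to 19 reads in 1 replicate. The gene window assigns peaks by position and shows no regulation of the gene. RUNX1 counts depend on transcripts that start far upstream of the canonical one. Expression, H3K27ac and input signal at these loci were not analysed here.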
